A study of Mus musculus with 2 samples.

Results

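Collagen genes were compared between ureters of Rbpj-cKO and control mouse embryos at E18.5 on 2-colour microarrays. They were taken from the arrays by name, as every probe spot whose gene name reads Col, a number, the letter a and a number. This gave 70 of 43020 spots, which are 61 of 39429 probes and 41 of 31791 gene names. By class there were 11 genes of fibrillar collagens, 6 of the type IV collagens of basement membranes, 9 of fibril-associated collagens (FACIT) and 15 others.

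The Rbpj-cKO embryos carry 1 Tbx18 allele with cre recombinase and 2 floxed Rbpj alleles, written Tbx18(cre/+);Rbpj(fl/fl) in the labels. The control embryos are written Rbpj(fl/?), so they carry at least 1 floxed allele, and no cre is listed for them. All are of the NMRI strain. Cre follows Tbx18, a gene of the mesenchyme that surrounds the early ureteric bud, so recombination is aimed at the ureteric mesenchyme and not at the urothelium. Rbpj is the nuclear effector of Notch signalling. There were 2 arrays. The male array carried Rbpj-cKO RNA in the red channel and control RNA in the green one, and the female array carried them the other way round. Sex, dye orientation and embryo therefore cannot be told apart in a difference between the arrays. The labels do not say whether RNA was pooled or from how many embryos it came. The p-values therefore measure only the spread between these arrays, mostly pooled over all features.

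Collagens are extracellular proteins whose chains wind around each other in a triple helix, in which a glycine recurs at a fixed short interval along each chain. Fibrillar collagens form the tension-bearing fibrils of connective tissue, and type IV collagens form the sheet-like network of basement membranes, which in the ureter lies under the urothelium and around each smooth muscle cell. FACIT collagens sit on the surface of fibrils, and the other classes form beaded filaments, anchoring fibrils, short-chain networks or membrane-spanning proteins. In mesenchymal organs fibroblasts and smooth muscle cells make most of the fibrillar collagen.

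A regular pattern of this kind can be seen in the DNA of a probe. The probe of Col25a1 shown here (mm9, chr3:130270497-130270556, plus strand) has GG followed by any base at every 9 bases, 6 times in all, and capitals mark these triplets. GG and any base is the form of a glycine codon, but the reading frame of the probe was not examined. Of the 61 collagen probes, 2 had this pattern along their whole length, this one and a dim probe of Col15a1.
Col25a1 probe: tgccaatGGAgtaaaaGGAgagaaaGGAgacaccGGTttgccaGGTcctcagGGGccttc

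Of the 41 collagen genes, 35 had a probe well above background and were tested, and each of these passed in all 4 channels. The other 6 were Col9a3, Col10a1, Col13a1, Col15a1, Col19a1 and Col28a1. Col9a3, Col13a1, Col19a1 and Col28a1 were not well above background in any of the 4 channels. Col10a1, a cartilage collagen, passed in the Rbpj-cKO channel of the male array alone. Col15a1, a collagen of basement membrane zones, passed in both channels of the male array and in neither of the female array. Where a gene had several probes, it was tested at the one of highest mean log2 intensity. Positions of probes are given on mm9 as deposited, and their place relative to exons, introns or UTRs was not examined. The pattern also leaves out 2 genes that the files list under older names: Emid2, now Col26a1, and Gm7455, now Col6a5. Col6a3, of type VI collagen, had no probe under that name in the files or through RefSeq accessions.

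The share of all probes well above background was 65.6% to 70.0% over the 4 channels, with 0 saturated probe spots. Rbpj, at its brighter probe, had log2 levels of 12.70 and 12.96 in Rbpj-cKO ureters (male, female), against 14.28 and 13.89 in controls. Its ratios were -1.58 and -0.93, with a limma adjusted p of 0.0760, which misses the threshold of 0.05, and a dimmer probe had -0.42 and -1.12. The labels do not say whether these probes lie in the deleted part. Markers of urothelium (11 of 11) and smooth muscle (9 of 9) were measured, as were 2 of 7 kidney markers. The number of arrays limits the precision of every value. Levels below are log2 intensities after normalization, comparable for 1 probe between channels and not between probes. Summed intensities of a list add unlogged levels over different probes, so its brightest probes weigh most. Ratios are log2 of Rbpj-cKO over control, given for the male and then the female array, and a mean is over the 2 arrays. Whether the groups overlap describes 2 levels per group and carries no test. The share of all features without overlap was not counted, so a lack of overlap is no sign of a change.

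No collagen gene passed the test. By limma with Benjamini-Hochberg adjustment over 20989 features, 0 of 35 had an adjusted p under 0.05, against 0.129% of all features. The lowest adjusted p among them was 0.453. At an unadjusted p under 0.05 there were 4 (11.4%), namely Col24a1, Col4a6, Col8a1 and Col23a1, against 3.37% of all features. The median of the 35 mean ratios was 0.09, with 0.10 for the male array and -0.04 for the female one, beside 0.01 over all features for each. Ratios were above 0 on both arrays for 10 genes (28.6%, against 21.7% of all features) and below 0 on both for 7 (20.0%, against 19.7%). They had opposite signs for 18 (51.4%, against 58.6%). A change of at least 1.5-fold on both arrays was found for 1 higher gene, Col4a6, and 1 lower gene, Col24a1, where 0.205% of all features were that much higher and 0.434% that much lower.

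**Figure D1:**
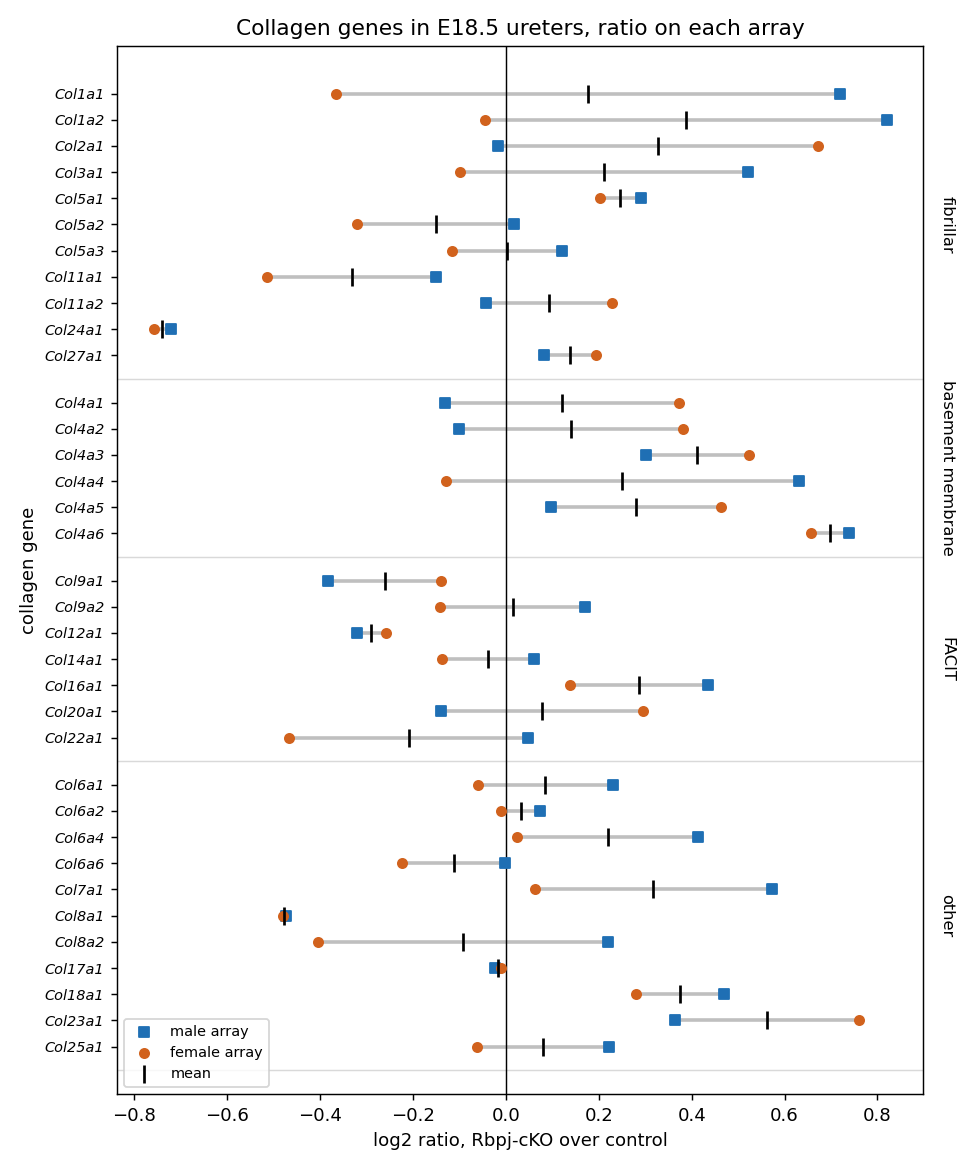
Log2 ratio of Rbpj-cKO over control (horizontal axis) for the 35 tested collagen genes, grouped by class, with the male array as squares, the female array as circles and their mean as a black tick. Col24a1 and Col8a1 lie left of 0 and Col4a6 and Col23a1 right of 0 on both arrays, while Col1a1 has 0.72 (male) and -0.37 (female).

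Of the fibrillar collagens, Col1a1, Col1a2 and Col3a1 were above control in Rbpj-cKO ureters on the male array and below it on the female array. Col1a1 and Col1a2 encode the chains of type I collagen, the main collagen of fibrous tissue. The Col1a1 probe (chr11:94813115-94813174) had log2 levels of 17.24 and 16.83 in Rbpj-cKO ureters (male, female), against 16.52 and 17.20 in controls. The groups overlapped, since the female control exceeded the female Rbpj-cKO level. Col1a2 (chr6:4490619-4490678) had 17.84 and 17.48 in Rbpj-cKO ureters, against 17.02 and 17.52 in controls. The male Rbpj-cKO channel was the highest and the male control the lowest. Col3a1 (chr1:45405589-45405648), whose homotrimer forms fibrils in distensible tissues, had 17.74 and 17.53 in Rbpj-cKO ureters, against 17.22 and 17.63 in controls, with the male control again the lowest.

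The ratios of these genes were thus spread widely between the arrays. Col1a1 had 0.72 and -0.37 (mean 0.18, SD 0.77, n = 2), Col1a2 had 0.82 and -0.04 (mean 0.39, SD 0.61) and Col3a1 had 0.52 and -0.10 (mean 0.21, SD 0.44). Their limma adjusted p was 1.00 in each case. The 95% interval of the mean, which limma draws from a spread pooled mostly over all features, was -0.37 to 0.73 for Col1a1, -0.12 to 0.90 for Col1a2 and -0.26 to 0.68 for Col3a1. These intervals hold both 0 and increases of over 1.5-fold (0.58 on this scale). Medians of the mesothelial markers differed in sign between the arrays, at 0.50 (male) and -0.21 (female) over 5 of 5 genes. Of these 2 were above 0 on both and 3 opposite, against 21.7% and 58.6% of all features. The pattern is common, since medians of the processing, breakdown, endothelial, nerve and glial, cartilage and bone lists given below differed in the same way. The summed intensity of the mesothelial markers was 50196 and 43591 in Rbpj-cKO ureters, against 38026 and 41630 in controls. The extremes of the mesothelial list were Muc16 (1.18 and -0.21), Msln (0.43 and 0.27), Wt1 (0.50 and -0.21) and Lrrn4 (1.01 and -1.63). Fibroblast markers had medians of -0.07 and -0.13 over 8 of 8 genes, with summed intensities of 297881 and 318334 in Rbpj-cKO ureters and 308995 and 360649 in controls. Among them Pi16 had 0.41 and -0.14, Mfap5 0.25 and -0.02, Dpt -0.20 and -1.90, and Mfap4 -0.97 and -0.59. The part of either cell type in the collagen values was not tested.

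**Figure D2:**
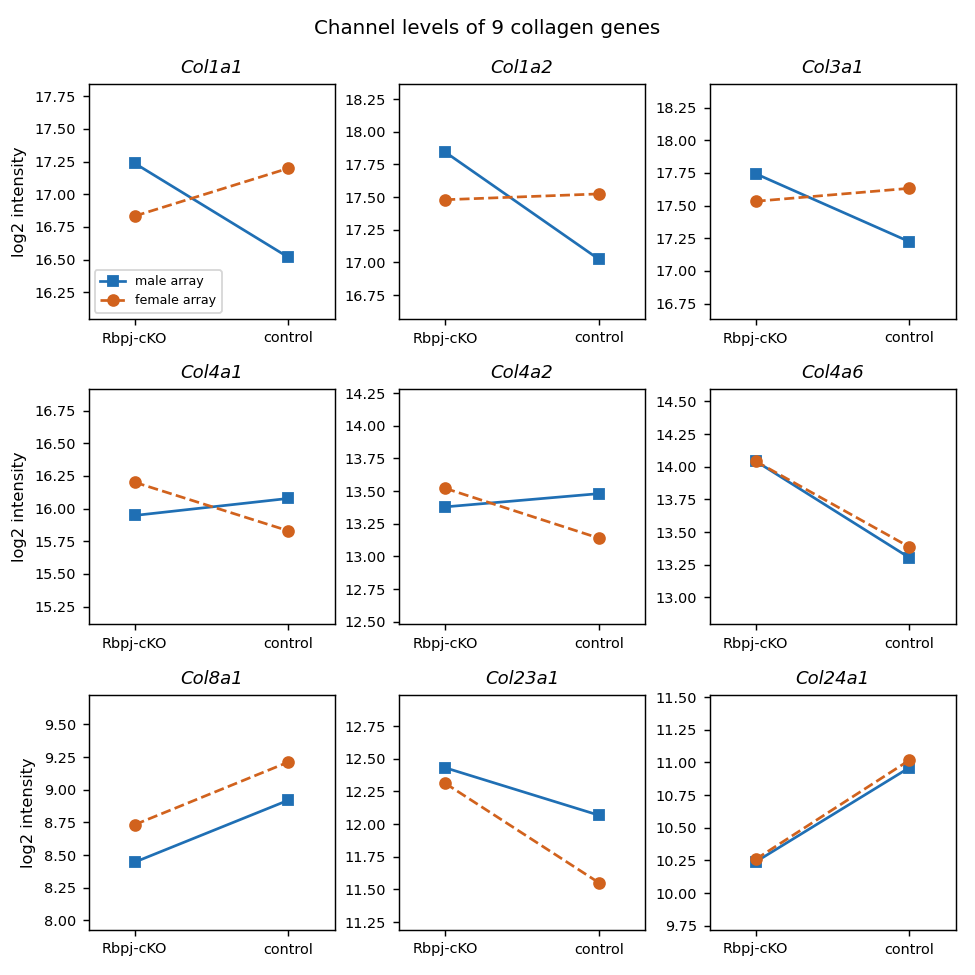
Normalized log2 intensity of 9 collagen genes (vertical axes span the same range of log2 units around each gene's mean) in Rbpj-cKO and control ureters, with lines joining the channels of 1 array (squares and solid lines male, circles and dashed lines female). The lines cross for Col1a1, Col1a2, Col3a1, Col4a1 and Col4a2, and run the same way for Col4a6, Col8a1, Col23a1 and Col24a1.

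Type V and type XI collagens nucleate fibrils and set their diameter. Col5a1, a chain of the main type V trimer, had 16.10 and 15.96 in Rbpj-cKO ureters, against 15.81 and 15.75 in controls, with ratios of 0.29 and 0.20 (mean 0.25, 95% interval -0.18 to 0.67). The groups did not overlap, and the interval holds 0. Its partner chain Col5a2 had log2 levels of 14.44 and 14.44 in Rbpj-cKO ureters, against 14.42 and 14.76 in controls (ratios 0.02 and -0.32). A chain of a less common trimer, Col5a3 had 13.36 and 13.06 in Rbpj-cKO ureters, against 13.24 and 13.18 in controls (ratios 0.12 and -0.12). So the 3 type V genes differed in sign on the female array. Of the cartilage-type chains, Col11a1 had log2 levels of 9.59 and 9.72 in Rbpj-cKO ureters, against 9.74 and 10.23 in controls (ratios -0.15 and -0.51). Col11a2 had 7.68 and 7.79 in Rbpj-cKO ureters, against 7.72 and 7.56 in controls (ratios -0.04 and 0.23). Col2a1 had 9.37 and 9.78 in Rbpj-cKO ureters, against 9.38 and 9.11 in controls (ratios -0.02 and 0.67). The Col11a1 groups did not overlap, with the female control the highest, and those of Col2a1 and Col11a2 differed in sign between the arrays. None of these passed (limma adjusted p 1.00 each).

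Col24a1 was the lowest of the tested collagen genes, with nearly equal ratios on the arrays. It encodes a fibrillar chain known from bone and cornea development. Its probe (chr3:145214473-145214532) had log2 levels of 10.24 and 10.26 in Rbpj-cKO ureters, against 10.96 and 11.02 in controls. Both Rbpj-cKO levels lay below both control levels. The ratios were -0.72 and -0.76 (mean -0.74, SD 0.03, n = 2), a level 1.67-fold lower in Rbpj-cKO ureters, with a 95% interval of -1.16 to -0.32. The limma p was 0.00262 before and 0.453 after adjustment over all features. Under the 9 other settings the mean stayed between -0.76 and -0.69 and the adjusted p between 0.347 and 1.00. Several of these settings share its ratio with the main one. Only 1 probe of Col24a1 is on the array. The other member of this branch of fibrillar collagens, Col27a1 had 11.69 and 11.92 in Rbpj-cKO ureters, against 11.61 and 11.72 in controls (ratios 0.08 and 0.19), and its groups overlapped. Tendon and joint markers were lower with Col24a1. All 5 listed were measured and 4 were below 0 on both arrays, against 19.7% of all features. Thbs4 had 0.84 and -0.45, and Mkx had -0.80 and -0.55. The medians of the 5 tendon and joint markers were -0.88 and -0.90, and their summed intensity was 2660 and 2416 in Rbpj-cKO ureters, against 4459 and 4425 in controls. Their part in the Col24a1 value was not tested. Of the bone markers 4 of 5 were measured, with medians of 0.21 and -0.04, and Alpl had 0.36 and -0.05, Bglap 0.42 and -0.12, Ibsp 0.05 and -0.03, and Sp7 0.01 and 0.22.

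Over the 11 fibrillar genes 2 were higher on both arrays (Col5a1 and Col27a1), 2 lower on both (Col24a1 and Col11a1) and 7 opposite. These are 18.2%, 18.2% and 63.6%, against 21.7%, 19.7% and 58.6% of all features. The class medians were 0.08 and -0.10.

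The type IV genes lay above control more often than below it, and Col4a6 had the highest mean of them. All 6 had a mean above 0, and 3 were above 0 on both arrays, 0 below on both and 3 opposite, where 21.7%, 19.7% and 58.6% of all features did so. The class medians were 0.20 and 0.42, and 0.27 for the means, beside 0.01 over all features. None of the 6 passed the test, and 1 had an unadjusted p under 0.05, beside 3.37% of all features. A count over 6 genes that share loci and partners is a description and carries no test.

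Col4a6 encodes the alpha6 chain, which joins alpha5 chains in the basement membranes of bladder smooth muscle and some epithelia. At its brighter probe (chrX:137599990-137600049) it had log2 levels of 14.04 and 14.04 in Rbpj-cKO ureters, against 13.30 and 13.39 in controls. Both Rbpj-cKO levels lay above both control levels. The ratios were 0.74 and 0.66 (mean 0.70, SD 0.06, n = 2), a level 1.62-fold higher in Rbpj-cKO ureters, with a 95% interval of 0.27 to 1.12 and a limma p of 0.00390 before and 0.553 after adjustment. A dimmer Col4a6 probe (chrX:137601433-137601491) had log2 levels of 9.49 and 9.43 in Rbpj-cKO ureters, against 9.45 and 9.18 in controls. The probes thus disagreed in size, since the dimmer one had ratios of 0.04 and 0.25, and with the mean over both probes Col4a6 came to 0.42. Its partner Col4a5 had 14.69 and 14.98 in Rbpj-cKO ureters, against 14.59 and 14.51 in controls, with ratios of 0.10 and 0.46 (mean 0.28, adjusted p 1.00). The Col4a5 groups did not overlap.

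Col4a1 and Col4a2 encode the chains of the most widespread type IV network, and their ratios were close on each array. Col4a1 (chr8:11199009-11199068) had log2 levels of 15.95 and 16.20 in Rbpj-cKO ureters, against 16.08 and 15.83 in controls. Col4a2 (chr8:11448840-11448899) had 13.38 and 13.52 in Rbpj-cKO ureters, against 13.48 and 13.14 in controls. In both genes the male Rbpj-cKO level lay under its control and the female one above it. The ratios were -0.13 and 0.37 for Col4a1 and -0.10 and 0.38 for Col4a2. The Col4a1 probe stands on each array in 10 spots, which show the technical error within an array. Its ratios ran from -0.17 to -0.08 on the male array (median -0.14, SD 0.03 over spots) and from 0.22 to 0.49 on the female array (median 0.39, SD 0.08 over spots). This spread between spots holds no difference between embryos.

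Col4a3 and Col4a4 encode chains of the type IV network known from kidney glomeruli. Col4a3 had 9.04 and 9.24 in Rbpj-cKO ureters, against 8.74 and 8.71 in controls, with ratios of 0.30 and 0.52 (mean 0.41, 95% interval -0.02 to 0.84). At the 1 of its 3 probes that was above background, Col4a4 had 9.86 and 9.004 in Rbpj-cKO ureters, against 9.23 and 9.13 in controls (ratios 0.63 and -0.13). Col4a3 was thus above control on both arrays and its partner chain on 1 alone. The Col4a3 groups did not overlap, and those of Col4a4 did. The measured kidney markers Six2 and Cdh16 were also above 0 on both arrays (1.48 and 0.86, and 0.21 and 1.29), with summed intensities of 2819 and 3019 in Rbpj-cKO ureters, against 1791 and 1460 in controls. The part of kidney tissue was not tested. Urothelial markers were above control with the type IV genes. All 11 were measured, 10 were above 0 on both arrays and 0 below on both, where 21.7% and 19.7% of all features did so. Their medians were 0.20 and 0.28. Their summed intensities were 1195310 and 1250180 in Rbpj-cKO ureters, against 992123 and 1021990 in controls. Among them Krt5 had 0.56 and 0.53, Upk1a 0.47 and 0.23, Foxa1 0.07 and 0.28, and Epcam 0.23 and -0.07. Smooth muscle markers were lower, with medians of -0.30 and -0.20 over 9 of 9 genes. Of these 7 were below 0 on both arrays and 1 above, against 19.7% and 21.7% of all features. Their summed intensities were 643863 and 640930 in Rbpj-cKO ureters, against 802434 and 728109 in controls. Among them Smtn had 0.18 and 0.14, Tagln -0.09 and -0.17, Actg2 -0.66 and -0.49, and Des -0.63 and -0.64. The part of the 2 cell types in the type IV values was not tested, and in whole ureters fewer cells of a type and less RNA per cell cannot be told apart.

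Type IV genes stand in pairs that are read outward from a shared region. The promoter windows in RefSeq (GRCm38.p6, 250 bases before to 50 after each annotated start) are shown for 2 such pairs, to set the sequences beside the ratios of their genes, and for Col24a1 as the lowest gene. The windows of Col4a1 (chr8:11312777-11313076, minus strand) and Col4a2 (chr8:11312555-11312854, plus strand) overlap by 78 bases and their annotated starts lie 21 bases apart. Capitals mark CCAAT or its reverse complement ATTGG, the letters of the CCAAT box, found 1 time in each.
Col4a1 promoter: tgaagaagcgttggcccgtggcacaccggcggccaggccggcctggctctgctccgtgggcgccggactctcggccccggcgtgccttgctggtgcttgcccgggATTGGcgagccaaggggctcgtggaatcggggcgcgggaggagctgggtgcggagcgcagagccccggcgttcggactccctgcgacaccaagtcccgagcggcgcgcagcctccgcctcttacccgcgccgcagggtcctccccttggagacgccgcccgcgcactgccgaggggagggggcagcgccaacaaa
Col4a2 promoter: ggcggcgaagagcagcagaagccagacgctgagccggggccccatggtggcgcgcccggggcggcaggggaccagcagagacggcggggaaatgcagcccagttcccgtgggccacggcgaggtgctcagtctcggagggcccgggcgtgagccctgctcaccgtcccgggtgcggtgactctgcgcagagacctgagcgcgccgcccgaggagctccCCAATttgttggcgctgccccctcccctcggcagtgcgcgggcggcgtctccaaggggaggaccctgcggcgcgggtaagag
The annotated starts of Col4a5 (chrX:141475169-141475468, plus strand) and Col4a6 (chrX:141474027-141474326, minus strand) lie 1343 bases apart and their windows do not overlap. In these and in Col24a1 (chr3:145292222-145292521, plus strand) capitals mark TGGGAA or its reverse complement TTCCCA, the core letters of the motif that Rbpj binds.
Col4a5 promoter: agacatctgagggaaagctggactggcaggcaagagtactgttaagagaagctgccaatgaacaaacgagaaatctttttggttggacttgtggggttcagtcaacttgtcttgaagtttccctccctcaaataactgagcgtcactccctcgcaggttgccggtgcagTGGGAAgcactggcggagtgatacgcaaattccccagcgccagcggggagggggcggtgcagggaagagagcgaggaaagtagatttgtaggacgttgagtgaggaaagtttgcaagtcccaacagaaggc
Col4a6 promoter: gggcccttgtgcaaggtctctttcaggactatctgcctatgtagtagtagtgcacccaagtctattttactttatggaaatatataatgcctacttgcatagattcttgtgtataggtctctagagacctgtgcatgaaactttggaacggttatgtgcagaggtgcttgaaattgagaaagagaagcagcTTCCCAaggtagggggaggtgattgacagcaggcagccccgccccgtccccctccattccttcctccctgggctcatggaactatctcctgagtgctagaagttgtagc
Col24a1 promoter: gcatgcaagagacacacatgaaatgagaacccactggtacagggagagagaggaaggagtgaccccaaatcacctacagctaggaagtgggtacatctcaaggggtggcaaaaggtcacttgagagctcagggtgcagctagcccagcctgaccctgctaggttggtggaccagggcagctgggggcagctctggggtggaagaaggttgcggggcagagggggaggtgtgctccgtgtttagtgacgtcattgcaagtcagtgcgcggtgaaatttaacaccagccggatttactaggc
TGGGAA was found 1 time in the Col4a5 window and 1 time in the Col4a6 window, while these letters are not in the Col24a1 window. Windows were given for 33 of the 41 collagen genes (36 windows), and 12 of these windows (33.3%) held TGGGAA on either strand, against 25.6% of all 32851 windows. CCAAT was in 13 (36.1%), against 37.4% of all. No match of one motif overlapped a match of the other in the collagen windows. A match describes the letters and is not a binding site.

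FACIT collagens had mean ratios between -0.29 and 0.29, and 0 of 7 tested genes had a limma p under 0.05 before adjustment, against 3.37% of all features. Col12a1, a FACIT collagen of tendon and other dense tissue, had log2 levels of 14.26 and 14.20 in Rbpj-cKO ureters, against 14.58 and 14.46 in controls. Its ratios were -0.32 and -0.26 (mean -0.29, 95% interval -0.71 to 0.13), and the groups did not overlap. Col14a1, its relative on fibril surfaces, had 15.87 and 15.71 in Rbpj-cKO ureters, against 15.81 and 15.85 in controls, so that its groups overlapped. A second Col14a1 probe had 0.33 and -0.66 where the brighter one had 0.06 and -0.14.

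Col16a1, found near basement membranes and smooth muscle, was above control on both arrays. At its brighter probe Col16a1 had log2 levels of 15.90 and 15.62 in Rbpj-cKO ureters, against 15.46 and 15.48 in controls (ratios 0.43 and 0.14), and another probe had 0.52 and 0.03. The groups did not overlap at the brighter probe. Of the cartilage chains, Col9a1 had 14.09 and 14.22 in Rbpj-cKO ureters, against 14.47 and 14.36 in controls (ratios -0.38 and -0.14). Col9a2 had 12.14 and 11.59 in Rbpj-cKO ureters, against 11.97 and 11.73 in controls (ratios 0.17 and -0.14). The Col9a1 groups did not overlap, and those of Col9a2 did. Col20a1 had 9.01 and 9.23 in Rbpj-cKO ureters, against 9.15 and 8.94 in controls (ratios -0.14 and 0.29), and its second probe had 0.0038 and 0.25. A collagen of tissue junctions, Col22a1 had 9.14 and 8.58 in Rbpj-cKO ureters, against 9.09 and 9.05 in controls (ratios 0.05 and -0.47), with the female Rbpj-cKO level the lowest. The FACIT genes had no common direction. The class medians were 0.05 and -0.14. There was 1 gene above 0 on both arrays, 2 below on both and 4 opposite (14.3%, 28.6% and 57.1%, against 21.7%, 19.7% and 58.6% of all features). Each limma adjusted p was 1.00. Of 8 cartilage markers 3 were measured, and Acan, Matn1, Matn3, Comp and Ucma did not pass the filter. The measured ones had medians of 0.33 and -0.46, with 0.68 and -0.65 for Cnmd, 0.33 and -0.46 for Sox5, and -1.09 and -0.38 for Hapln1, a cartilage link protein. Their part in the values of the cartilage-type collagens was not tested.

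Of the 11 remaining collagens tested, Col8a1 and Col23a1 were the 2 with an unadjusted limma p under 0.05 (18.2%, against 3.37% of all features). Col8a1 encodes a short-chain collagen made by endothelium and smooth muscle. Its probe (chr16:57624471-57624530) had log2 levels of 8.45 and 8.73 in Rbpj-cKO ureters, against 8.92 and 9.21 in controls. On each array the Rbpj-cKO level was the lower, and both lay below both control levels. The ratios were -0.47 and -0.48 (mean -0.48, 95% interval -0.90 to -0.05), a level 1.39-fold lower, with a limma p of 0.0303 before and 1.00 after adjustment. At its brighter probe its partner Col8a2 had 14.48 and 13.97 in Rbpj-cKO ureters, against 14.26 and 14.38 in controls (ratios 0.22 and -0.40). Another probe had -0.09 and 0.23, so that its probes had opposite signs on each array.

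Col23a1 encodes a membrane-spanning collagen. At its brightest probe (chr11:51396885-51396944) it had log2 levels of 12.43 and 12.31 in Rbpj-cKO ureters, against 12.07 and 11.55 in controls. Both Rbpj-cKO levels lay above both control levels. The ratios were 0.36 and 0.76 (mean 0.56, 95% interval 0.12 to 1.00), a level 1.48-fold higher, with a limma p of 0.0172 before and 1.00 after adjustment. A second probe (chr11:51394105-51394164) had 0.53 and 0.54, so that the probes had the same direction on both arrays. Another, above background in the Rbpj-cKO channel of the male array alone, had 0.38 and 0.18. Col17a1 and Col25a1 are also membrane-spanning, and Col17a1 is part of the hemidesmosome under basal epithelial cells. Col17a1 had log2 levels of 9.51 and 9.61 in Rbpj-cKO ureters, against 9.54 and 9.62 in controls (ratios -0.02 and -0.01). Col25a1 had 7.89 and 8.07 in Rbpj-cKO ureters, against 7.67 and 8.13 in controls at its brightest probe (ratios 0.22 and -0.06). The groups of both overlapped. A second Col25a1 probe had 0.19 and 0.12, and the probe with the printed sequence had -0.14 and 0.29. The 3 kept Col25a1 probes thus differed in sign on each array, with means of 0.08, 0.16 and 0.08. Another Col25a1 probe, which was not kept, had -0.19 and 0.15.

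Col18a1, a collagen of basement membrane zones and the source of endostatin, had 15.13 and 15.09 in Rbpj-cKO ureters, against 14.66 and 14.81 in controls. The groups did not overlap. The ratios were 0.47 and 0.28 (mean 0.38, 95% interval -0.05 to 0.80, adjusted p 1.00), and its second probe had 0.29 and 0.54. Col7a1, of the anchoring fibrils under epithelia, had 10.68 and 10.45 in Rbpj-cKO ureters, against 10.10 and 10.39 in controls. Its ratios were 0.57 and 0.06, and the groups did not overlap.

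Col6a1, Col6a2, Col6a4 and Col6a6, of type VI collagen, the beaded filament around cells, had mean ratios between -0.11 and 0.22. Col6a1 had 16.55 and 15.98 in Rbpj-cKO ureters, against 16.32 and 16.04 in controls, and ratios of 0.23 and -0.06. Col6a2 had 11.31 and 11.09 in Rbpj-cKO ureters, against 11.23 and 11.10 in controls (ratios 0.07 and -0.01, 95% interval of the mean -0.39 to 0.46). The groups of both overlapped. Col6a4 had 8.28 and 7.93 in Rbpj-cKO ureters, against 7.87 and 7.91 in controls (ratios 0.41 and 0.02). Col6a6 had 10.46 and 10.13 in Rbpj-cKO ureters, against 10.46 and 10.36 in controls (ratios -0.0012 and -0.22). The Col6a4 groups did not overlap, and those of Col6a6 did. These values do not show that the levels were the same. Col6a5, listed under its older name and named after its values were seen, had 13.05 and 11.21 in Rbpj-cKO ureters, against 10.88 and 11.72 in controls (ratios 2.18 and -0.51), while its second probe was not above background. Col26a1, chosen in the same way, had -0.08 and -0.29. Over the 11 tested genes outside the other classes 4 were above 0 on both arrays, 3 below on both and 4 opposite, and the medians were 0.22 and -0.01. These counts are 36.4%, 27.3% and 36.4%, against 21.7%, 19.7% and 58.6% of all features.

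**Figure D3:**
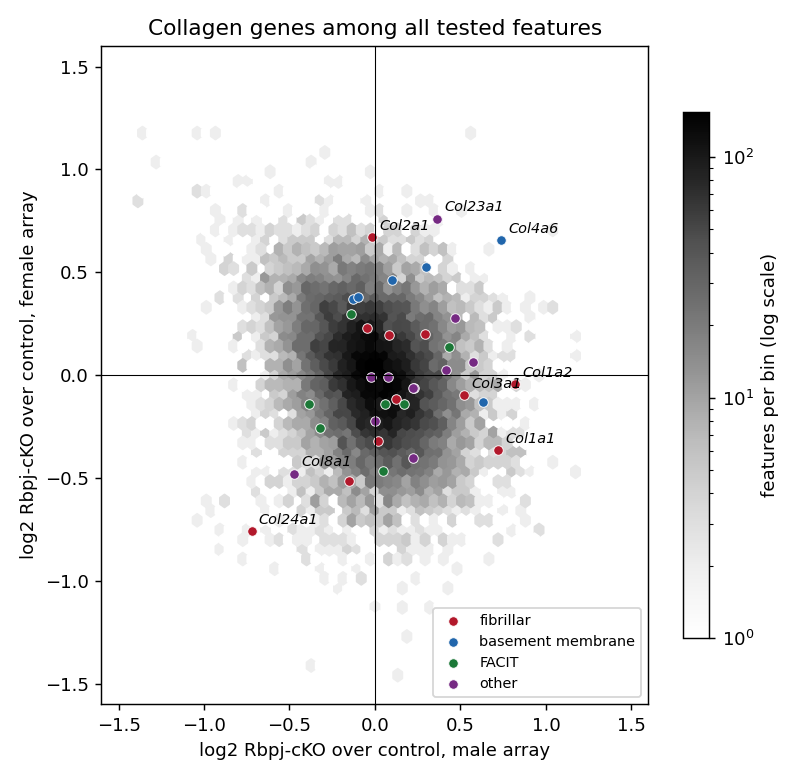
Log2 ratio of Rbpj-cKO over control on the male array (horizontal) and the female array (vertical) for 35 collagen genes, coloured by class, over a grey density of the 20989 tested features (77 features beyond 1.6 on either axis are outside the frame). Col4a6 and Col23a1 stand in the upper right and Col24a1 in the lower left, while Col1a1, Col1a2 and Col3a1 stand to the right at or below 0 on the female array.

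Across the 35 genes the male and female ratios had a Pearson correlation of 0.33 and a Spearman correlation of 0.28. This describes genes on the same 2 arrays, which are not independent replicates. The median absolute difference between the arrays was 0.30, beside 0.28 over all features.

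Genes that make, shape and read collagen did not pass the test either. Over all features 21.7% were above 0 on both arrays, 19.7% below on both and 58.6% opposite. Folding and modification enzymes and chaperones (21 of 21 listed genes measured) had 2 above, 5 below and 14 opposite, with medians of -0.02 and -0.12. Serpinh1, the collagen chaperone of the endoplasmic reticulum, had log2 levels of 16.13 and 15.89 in Rbpj-cKO ureters, against 16.44 and 16.37 in controls, with ratios of -0.32 and -0.48. P3h2, a prolyl 3-hydroxylase that modifies type IV collagen among others, had 9.59 and 9.14 in Rbpj-cKO ureters, against 10.09 and 10.13 in controls (ratios -0.50 and -0.99, limma adjusted p 0.553). Both genes were lower on both arrays, without overlap between the groups. The highest of the list were Mia3, which exports procollagen, with 0.19 and 0.21, and Plod3, a lysyl hydroxylase, with 0.05 and 0.31.

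Procollagen processing and cross-linking genes (11 of 13 measured) had medians of 0.34 and -0.03. Of these 4 were above 0 on both arrays and 2 below on both, beside 21.7% and 19.7% of all features. The enhancer of procollagen cleavage Pcolce2 had 0.62 and 0.11 and the procollagen protease Adamts14 had 0.53 and 0.17. The cross-linking oxidases Loxl2 and Loxl4 had -0.28 and -0.56, and -0.12 and -0.29. Of the collagen receptors (8 of 10 measured, medians -0.02 and -0.10), Itga11 had 0.78 and -0.13, Ddr1 had 0.47 and 0.03, Itga1 had -0.06 and -0.57 and Itgb1 had -0.09 and -0.47. All 4 named receptor genes thus had most of their ratio on 1 array. Of the genes of collagen breakdown and its inhibitors (12 of 13 measured, medians 0.18 and -0.05), the collagenase Mmp8 had 0.61 and 0.48 and the inhibitors Timp1, Timp3 and Timp4 had 0.40 and 0.35, -0.20 and -0.50, and -0.45 and -0.22.

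Matrix partners of collagen (25 of 25 measured) had medians of 0.24 and 0.05. Of these 10 were above 0 on both arrays and 6 below on both, beside 21.7% and 19.7% of all features. Aspn, a small leucine-rich proteoglycan that binds type I collagen, had the lowest mean ratio of the list, with log2 levels of 14.69 and 14.83 in Rbpj-cKO ureters, against 15.74 and 15.53 in controls, and ratios of -1.05 and -0.69 and a limma adjusted p of 0.289. Tnxb, which links fibrils in dense connective tissue, had -0.49 and -0.61. Both were lower on both arrays and did not pass. Frem1 and Fras1, of the basement membrane under epithelia, had 1.48 and 0.28, and -0.10 and 0.82. By limma 0 genes of the 5 collagen-handling lists passed. At an unadjusted p under 0.05 there were 4 matrix partners, 1 gene of folding and modification and 1 of breakdown and its inhibitors, and 0 of the other lists. That is 4 of 25, 1 of 21 and 1 of 12 measured genes, beside 3.37% of all features. The lists share no tested gene with the collagen genes.

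**Figure D4:**
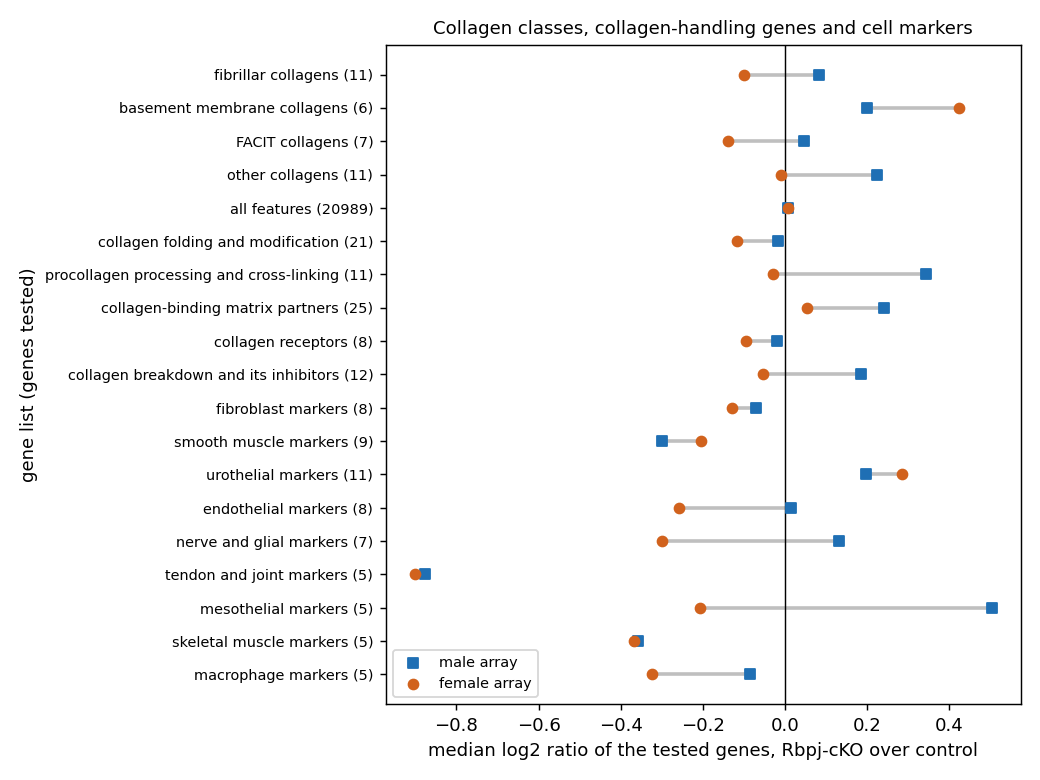
Median log2 ratio of Rbpj-cKO over control on the male array (squares) and the female array (circles) for the collagen classes, all features, the collagen-handling lists and the cell marker lists with at least 5 tested genes (number in parentheses). Type IV collagens and urothelial markers lie right of 0 on both arrays, and smooth muscle, skeletal muscle and tendon markers left of 0. Matrix partners of collagen also lie right of 0 on both, and the folding, receptor, fibroblast and macrophage lists also left of 0.

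Other marker lists had medians of 0.01 and -0.26 for endothelium (8 of 8 measured), 0.13 and -0.30 for nerve and glia (7 of 8), -0.36 and -0.37 for skeletal muscle (5 of 6) and -0.08 and -0.32 for macrophages (5 of 5). Of the endothelial list, Cdh5 had 0.36 and -0.02, Esam 0.29 and -0.29, Tek -0.41 and -0.41, and Egfl7 0.16 and -0.90. Of the nerve and glial list, Tubb3 had 0.77 and -0.36, Elavl4 0.49 and -0.09, S100b -0.33 and -0.51, and Th 0.61 and -1.79. Over the measured genes, 5 of 8 endothelial and 4 of 7 nerve and glial markers had opposite signs on the arrays, against 58.6% of all features. Of the macrophage list, Adgre1 had 0.10 and -0.02, Ptprc -0.08 and 0.10, Cd68 -0.20 and -0.32, and C1qb -0.37 and -0.61. Of the skeletal muscle list, Actn3 had -0.11 and 0.24, Myh3 -0.15 and -0.37, and Tnnt3 -0.36 and -0.52. Among all markers 2 fell by the limma test, the joint lubricant gene Prg4 (-1.35 and -1.40, adjusted p 0.0211) and the muscle creatine kinase gene Ckm (-1.42 and -1.43, adjusted p 0.0203). They are 1 of 5 measured tendon and joint markers and 1 of 5 skeletal muscle markers, beside 0.129% of all features. The lists were chosen with earlier results of these data known, so these genes give no independent support. Neither passed with Agilent processed signals, median centring, the series value table or no filter on dim probes, where 0 features passed. Tnmd, a tendon membrane protein, had -0.91 and -1.12 (adjusted p 0.133).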

How the data were processed

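Total RNA of dissected E18.5 ureters was amplified, coupled to AlexaFluor555 or AlexaFluor647 and hybridised to 2 arrays with swapped dyes, per the labels' protocols. Images were read with Agilent Feature Extraction 10.7.3.1, per the submitters' processing notes, and the deposited files list an intensity per spot. Mean and background signals are an intensity without normalization, and processed signals an intensity after background subtraction and dye normalization, per the file headers. Per the file headers, a log10 ratio sets red against green. A deposited table of the series gives each probe a score, a signed fold. Turned to log2, it matched the processed signals within 0.001 for 67.1% (male) and 67.0% (female) of all 39030 probes of 1 spot, and on both arrays for 42 of the 43 such collagen probes that were kept, and its column medians were 1.

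Mean signals were corrected with normexp (offset 50) against the median background and normalized by loess within arrays, with control spots at weight 0 (limma 3.58.1, R 4.3.3). Control spots and outlier spots (200 and 274) were dropped and replicate spots averaged by probe. Probes well above background on both arrays in either group were kept (26224 of 39429). Names came from RefSeq accessions (26412 probes) or the files, and a gene was its brightest probe. Levels were taken after Aquantile. Features (20989) were tested two-sided with lmFit and eBayes (10.3 prior and 1 residual degrees of freedom) with a threshold of 0.05, so p-values rest mostly on a spread pooled over features. Both arrays were of 1 slide and scan. The collagen genes and gene lists were chosen with earlier results of these data known. All collagen genes were named, and of each other list up to 4, passing genes first, then the highest and lowest by mean. Alternatives were other background, normalization, filter, probe and variance settings. Promoter windows came from RefSeq (GRCm38.p6).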

Additional observations from a re-analysis of the deposited data

Results flagged for a closer look

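Ratios of Rbpj-cKO over control had opposite signs in the male and female arrays for 18 of 35 collagen genes (51.4%, against 58.6% of all features). The difference between the sexes was not tested, since each sex has 1 array, and sex and dye orientation cannot be told apart. The male ratio was the higher, by a log2 difference (male minus female) of 1.09 for Col1a1, 0.86 for Col1a2, 0.76 for Col4a4, 0.62 for Col8a2, 0.62 for Col3a1, 0.51 for Col22a1, 0.34 for Col5a2, 0.31 for Col9a2, 0.29 for Col6a1, 0.28 for Col25a1, 0.24 for Col5a3, 0.20 for Col14a1 and 0.0835 for Col6a2. It was the lower, with a difference of -0.69 for Col2a1, -0.50 for Col4a1, -0.48 for Col4a2, -0.43 for Col20a1 and -0.27 for Col11a2.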

How the results depend on the processing

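No collagen gene passed the test with any of the 9 alternative settings: Agilent processed signals, median centring, normexp offset 16, the series value table, no filter on dim probes, only probes above background in all channels, the mean over a gene's probes, every probe as a feature and an intensity trend in the variance. The lowest adjusted p of a collagen gene ranged from 0.328 with the trend (Col4a6) to 1.00 with median centring. Over the features tested, 27 passed, and 0 with processed signals, median centring, the value table or no filter, 29 with offset 16, 26 with all channels above background, 10 with the mean over probes, 42 with every probe and 41 with the trend. Of 315 gene values under these settings 314 kept direction and side of the threshold, and Col17a1 had 0.023 with median centring. Much of this was fixed in advance. With no filter, all channels above background, every probe or the trend, each gene kept the ratio of the main setting. The mean over probes can move only genes with several kept probes, and the value table mostly repeats the processed signals. The count is therefore no independent check. The median of the collagen genes was -0.044 without replicate 1 and 0.098 without replicate 2, and that of the fibrillar genes -0.099 and 0.083. Those of the FACIT genes were -0.14 and 0.047, and those of the other collagens -0.011 and 0.22. Of these medians, all but that of the type IV genes (0.42 and 0.20) changed sign with the array left out. The median of the FACIT genes was 0.014 with no filter, against -0.039. With median centring, the fibrillar medians were 0.33 (male) and -0.54 (female), and the type IV medians 0.41 and 0.24. The test was paired within an array, since each ratio pairs its 2 RNAs, and 1 ratio per sex leaves no further block. Signal over background limits the 6 genes without a tested probe.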
